A study of Arabidopsis thaliana with 36 samples.

Results

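The plasma membrane proton pumps of Arabidopsis thaliana are a small gene family, named AHA for autoinhibited H+-ATPase. They were followed here in an iron transport mutant and its wild type. Members were taken by their AGI locus names: AHA1, AHA2, AHA4, AHA5, AHA6, AHA7, AHA8, AHA9, AHA10 and AHA11, which are 10 of the 28775 genes in the deposited count table. AHA3, a further pump of the family, was not among the chosen loci, and its values are given only where they bear on a result. Of the 10 genes, 9 had enough reads to be tested among 21692 genes, and AHA6 did not.

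The study compared wild-type Columbia-0 with opt3-2, a mutant allele of OPT3 (AT4G16370), which encodes an iron transporter of the phloem, and it took roots and leaves of each. Each of the 4 groups (Columbia-0 root, opt3-2 root, Columbia-0 leaf and opt3-2 leaf) holds 3 biological replicates, each sequenced in 3 runs that were summed. All plants grew for 11 days on plates, then hydroponically for 22 days, with 16 h light and 8 h dark, and each RNA sample pooled 3 to 4 plants. All groups are labelled as grown in replete medium, but the treatment text that all of them share speaks of 20 µM CdCl2 for 72 h, and which of these holds was not settled. Nothing in the labels says that replicates were cultured apart, so each p-value covers only the spread among the samples at hand. The tissue is bulk, so fewer cells of a type and less RNA per cell cannot be told apart. Depth was 23981444 to 37685493 counted reads per replicate. OPT3 itself was at 6.64 to 8.20 CPM (reads per 1000000 counted reads) in the wild-type roots and 4.94 to 6.47 in the mutant ones, a log2 difference of -0.41 ± 0.17 that did not pass the test (adjusted p = 0.125). In leaves it fell from 80.7 to 128 CPM to between 18.4 and 21.0 CPM (log2 -2.40 ± 0.16, adjusted p = 2.66e-06). Summed leaf-tissue markers (RBCS1A, LHCB1.3 and LHCA4) were at 40847 to 44062 CPM in Columbia-0 leaves, 34412 to 35621 CPM in opt3-2 leaves and 118 to 308 CPM in root samples. Summed root-tissue markers (PYK10, CASP1 and COBL9) were at 5105 to 5356 CPM in Columbia-0 roots, 3050 to 3706 CPM in opt3-2 roots and 51.4 to 81.0 CPM in leaves.

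As background, each pump is a single polypeptide of the P-type ATPase class that spends ATP to move protons out of the cell. The proton gradient drives the uptake of nutrients, loosens the wall for growth and acidifies the soil around the root, where a lower pH brings ferric iron into solution. The C-terminal tail holds the pump inactive until its penultimate threonine is phosphorylated and bound by a 14-3-3 protein. Iron-deficient roots of this species switch on proton release together with the ferric reductase FRO2 and the iron transporter IRT1, under the bHLH factor FIT, and opt3 mutants are known for showing this root response when iron is supplied. AHA2 is the pump best known for root proton release, and AHA7 is known for its link to iron deficiency and to root hairs. AHA1 is known for its part in stomatal opening.

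The end of the coding sequence carries the regulatory threonine, and it is shown for the 5 pumps that passed the test between genotypes in either organ. Sequences are from RefSeq's TAIR10.1, read 5′ to 3′ on the coding strand, and the capitals mark the codon of the penultimate threonine.
AHA1: gatacagcaggacatcactacACTgtgtag
AHA2: attgaaactcccagtcactacACTgtgtag
AHA4: gaaaccattcaacaagcttacACTgtctga
AHA7: gatcctaacagcaacaactacACAatctga
AHA11: gaaaccattcaacaagcttacACCgtctga
All 10 genes encode threonine at this place, and in 8 of the 10 the last residue is valine. AHA7 ends in isoleucine and AHA9 in leucine. AHA4 and AHA11 show the same bases before that codon in the stretch shown, and over the whole coding sequence they shared 87.6% of aligned bases. AHA1 and AHA2 were the closest pair of all, at 89.2%, and AHA2 and AHA3 shared 79.5%.

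The genes are spread over all 5 chromosomes. On TAIR10.1, AHA1 (AT2G18960) lies at chr2:8221514-8227622 on the plus strand with 16 coding exons, AHA2 (AT4G30190) at chr4:14770395-14776247 on the minus strand with 14, and AHA7 (AT3G60330) at chr3:22298373-22303718 on the plus strand with 21. AHA4 (AT3G47950) lies at chr3:17692666-17697999 and AHA11 (AT5G62670) at chr5:25159208-25165209, both on the plus strand. The other 5 are AHA5 (AT2G24520), AHA6 (AT2G07560), AHA8 (AT3G42640), AHA9 (AT1G80660) and AHA10 (AT1G17260). Only AHA1 and AHA2 share exact stretches of 50 bases with another pump: 14 of 4024 such windows of AHA1 (0.35%) and 16 of 3550 of AHA2 (0.45%) also occur in the other one. Exons of 5 of the 10 genes overlap an annotated neighbour: AHA4 shares 58 exon bases with GTR1, AHA11 shares 73 with GTR2, AHA7 shares 134 with AT3G60328 and 56 with AT3G00950, AHA8 shares 135 with AT3G06425 and AHA9 shares 39 with RTL1. No source used here says whether reads were counted by strand, so reads from those stretches could not be assigned to either gene with certainty.

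Levels of different genes were compared as CPM per kilobase of coding sequence. AHA2 was the most abundant pump transcript in roots and AHA1 in leaves, in both genotypes. In Columbia-0 roots AHA2 stood at 481 ± 22.1 CPM per kb (SD, n = 3 here and for the levels that follow) and AHA1 at 351 ± 24.2, then AHA7 at 22.6 ± 1.03, AHA11 at 17.8 ± 1.62 and AHA8 at 8.32 ± 0.256. AHA5 (3.53 ± 0.0696) and AHA4 (3.38 ± 0.233) followed with overlapping ranges, then AHA10 (0.807 ± 0.149) and AHA9 (0.144 ± 0.0493). In opt3-2 roots the same 5 genes led in the same order, with AHA2 at 584 ± 113 CPM per kb, AHA1 at 274 ± 18.8, AHA7 at 63.0 ± 12.2, AHA11 at 19.0 ± 2.11 and AHA8 at 7.90 ± 0.244. The only overlapping neighbours there were AHA4 (3.51 ± 0.388) and AHA5 (3.33 ± 0.251).

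In Columbia-0 leaves AHA1 stood at 261 ± 5.50 CPM per kb, above AHA11 at 56.4 ± 4.38 and AHA2 at 49.98 ± 5.02, whose ranges overlapped. AHA5 (7.73 ± 0.550) and AHA8 (7.13 ± 0.733) also overlapped, as did AHA4 (0.860 ± 0.112) and AHA10 (0.842 ± 0.116), and AHA7 came eighth at 0.677 ± 0.0271 CPM per kb. In opt3-2 leaves AHA1 stood at 356 ± 4.56 CPM per kb and AHA2 at 79.6 ± 2.64, and AHA11 followed at 35.5 ± 1.84, apart from both. AHA7 (0.638 ± 0.214) and AHA10 (0.636 ± 0.0458) overlapped near the bottom. AHA3, which is not in this ranking, stood at 147 ± 12.4 CPM per kb in Columbia-0 leaves and 121 ± 6.44 in opt3-2 leaves, between AHA1 and the other pumps, but at only 9.68 ± 0.330 and 11.3 ± 1.05 in the roots. Using the length of all annotated exons in place of the coding length exchanged AHA4 with AHA10 in Columbia-0 leaves and AHA7 with AHA10 in opt3-2 leaves, and moved no other rank. By that length AHA11 (44.9 to 52.3 CPM per kb) and AHA2 (35.5 to 43.3) did not overlap in Columbia-0 leaves.

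**Figure D1:**
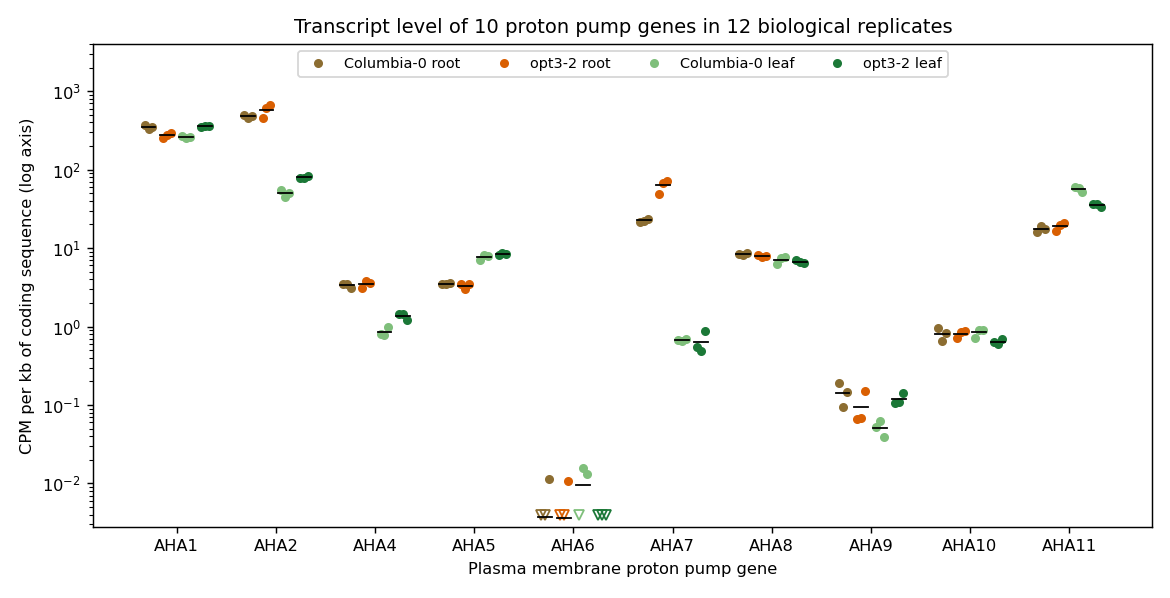
Level of each of the 10 pump genes in the 12 biological replicates, as CPM per kb of coding sequence on a log axis; points are replicates, black lines are group means, and open triangles at the bottom are samples with 0 reads. AHA1 and AHA2 sit at the top in roots and AHA1 alone in leaves, and AHA7 falls from 22.6 in wild-type and 63.0 in mutant roots to below 1 in leaves.

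AHA1 and AHA2 together made up most of the summed level of the 10 genes in every sample. AHA3 is not in this sum, so the leaf sums and shares leave out an abundant pump. It stood at 147 ± 12.4 CPM per kb in Columbia-0 leaves and 121 ± 6.44 in opt3-2 leaves. The joint share of AHA1 and AHA2 was 93.6% ± 0.506 in wild-type and 89.8% ± 0.0813 in mutant roots. In leaves it was 80.9% ± 1.03 in Columbia-0 and 89.1% ± 0.406 in opt3-2. The sum itself was 841 to 930 CPM per kb in Columbia-0 roots and 794 to 1077 in opt3-2 roots, so the root groups overlapped. In leaves it was 376 to 395 CPM per kb in Columbia-0 and 483 to 494 in opt3-2, without overlap. Several shares within the sum also differed between genotypes without overlap. In roots AHA2 took 53.9 to 54.4% of the sum in Columbia-0 and 57.7 to 62.7% in opt3-2, while AHA1 took 38.8 to 40.3% and 27.1 to 32.1%. AHA7 took 2.34 to 2.66% of the root sum in Columbia-0 and 6.20 to 6.77% in opt3-2. In leaves AHA11 took 13.4 to 15.4% in Columbia-0 and 6.83 to 7.50% in opt3-2, and AHA1 took 67.1 to 68.6% and 72.7 to 73.0%. The ratio of AHA2 to AHA1 per kb was 1.37 ± 0.0318 in wild-type and 2.12 ± 0.283 in mutant roots, against 0.191 ± 0.0153 and 0.224 ± 0.00773 in leaves. These shares and ratios are given as a description with no test, and their size depends on the length used. Per kb of all annotated exons, mean AHA2 and AHA1 were at 383 and 219 CPM in Columbia-0 roots. In opt3-2 roots they were at 466 and 171.

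**Figure D2:**
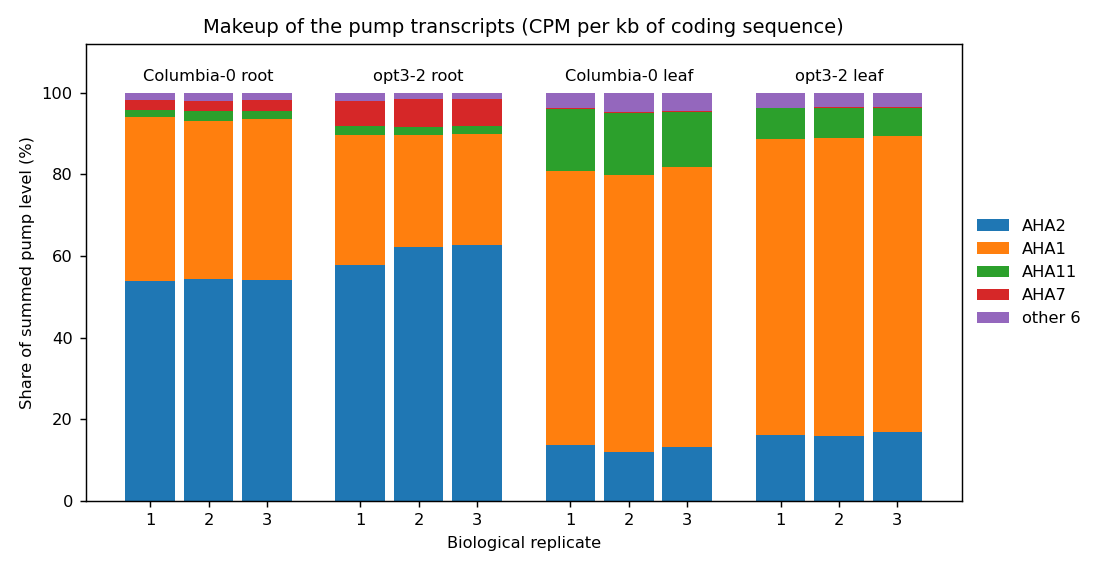
Makeup of the summed level of the 10 pump genes, without AHA3 (CPM per kb of coding sequence), in each replicate, in percent. Each bar is 1 replicate and colours are genes, with AHA4, AHA5, AHA6, AHA8, AHA9 and AHA10 drawn together. The AHA7 segment is wider in opt3-2 roots (6.20 to 6.77%) than in Columbia-0 roots (2.34 to 2.66%), and the AHA11 segment is narrower in opt3-2 leaves (6.83 to 7.50%) than in Columbia-0 leaves (13.4 to 15.4%).

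The first comparison asked which pump genes differed between opt3-2 and Columbia-0 roots. AHA7 was the pump that rose, by 2.79-fold, and AHA1 fell, to 0.778 of its Columbia-0 level. The other 7 tested pumps did not pass the threshold of an adjusted p of 0.05 in edgeR's quasi-likelihood test. In all, 2 of 9 tested members were called, where 15.6% of all genes tested were called, 8.28% higher and 7.28% lower. The median log2 fold change of the 9 members was 0.01, beside 0.00 over all genes, and 3 members had an unadjusted p under 0.05.

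AHA7 had 62.7, 64.5 and 68.5 CPM in Columbia-0 roots and 142, 195 and 209 CPM in opt3-2 roots. Every opt3-2 root was above every Columbia-0 root, and opt3-2 replicate 1 was the lowest of its group. The log2 fold change was 1.48 ± 0.16 (SE, adjusted p = 9.09e-05), and it was called under all 15 alternative settings, between 1.37 and 1.63. The transcript is little present in leaves, and there it showed no called difference.

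AHA1 stood at 1067, 929.6 and 1008 CPM in Columbia-0 roots and at 726, 780.5 and 833 CPM in opt3-2 roots. The groups did not overlap, and all 3 mutant roots were below the lowest wild-type root. The log2 fold change was -0.36 ± 0.08 (adjusted p = 0.00837). The direction held under all 15 alternatives, but the call was lost in 3 of them: with the root samples fitted alone (adjusted p = 0.0602), with the roots alone and the replicate number as a block (adjusted p = 0.0838), and with the set of run numbers as a covariate (adjusted p = 0.0516).

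AHA2 stood at 1478, 1348 and 1426 CPM in Columbia-0 roots and at 1349.8, 1826 and 1989.7 CPM in opt3-2 roots. Replicates 2 and 3 of opt3-2 were above all Columbia-0 roots, and replicate 1 was level with the lowest of them. The log2 fold change of 0.28 ± 0.13 did not pass (adjusted p = 0.169). It passed when opt3-2 root replicate 1 was left out (log2 0.43, adjusted p = 0.0097). That same replicate was the lowest opt3-2 root for AHA1, AHA2 and AHA7.

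Root hair markers and leaf-tissue markers also set this library at one end. The summed level of 7 root hair markers was 169.5, 187 and 174 CPM in Columbia-0 roots and 110.2, 145 and 179 CPM in opt3-2 roots, so the groups overlapped, and opt3-2 replicate 1 was the lowest of the 6. None of the 7 markers was at 0 in roots, and edgeR called 1 of the 7, where 15.6% of all genes were called. RSL4, a bHLH activator of hair growth, rose from 3.44 to 4.55 CPM to between 9.67 and 11.3 CPM (log2 1.42 ± 0.20, adjusted p = 0.00127). The other 6 had negative log2 changes that edgeR did not call, from -0.04 for RHD6 to -0.60 ± 0.23 for PRP3 (adjusted p = 0.111), and the list median was -0.26. EXPA18 (log2 -0.55 ± 0.19, adjusted p = 0.0764) was called lower by DESeq2 (0.0325) and by limma voom (0.0163), and PRP3 by limma voom (0.013). Both also passed without opt3-2 root replicate 3 (0.0207 and 0.0173) and with the replicate block on the roots alone (0.0279 and 0.0251). The leaf-tissue sum was 308 CPM in opt3-2 root replicate 1 and 118 to 219 CPM in the other 5 root samples. Markers of the endodermis summed to 168 to 232 CPM in Columbia-0 roots and 135 to 196 CPM in opt3-2 roots, with a list median of -0.22. None of the 8 was called in the main edgeR test, with 1 at an unadjusted p under 0.05. SCR was called lower with upper-quartile scaling (log2 -0.24, adjusted p = 0.0432) and without opt3-2 root replicate 3 (log2 -0.29, adjusted p = 0.0295). PYK10, a root glucosidase that makes up most of the root-tissue sum, fell in the same roots as AHA1 (log2 -0.62 ± 0.15, adjusted p = 0.0173), a call lost without Columbia-0 root replicate 1 (0.0533) and with the run-number covariate (0.117). The part of these tissues in the pump values was not tested.

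**Figure D3:**
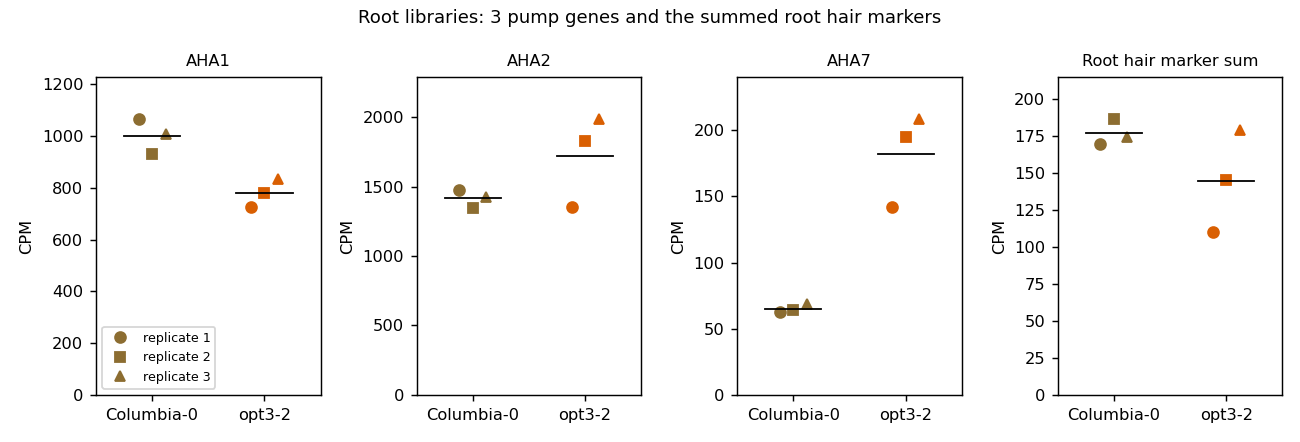
CPM of AHA1, AHA2 and AHA7, and the summed CPM of 7 root hair markers, in the root replicates; symbols show the replicate number, black lines the group means, and all axes start at 0. AHA7 separates the genotypes (62.7 to 68.5 against 142 to 209), AHA2 overlaps through opt3-2 replicate 1, and that replicate is also lowest for the root hair markers.

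None of the other pump genes of the root was called. AHA11, widely expressed in the plant, stood at 46.3 to 55.6 CPM in Columbia-0 roots and 47.6 to 59.3 in opt3-2 roots (log2 0.09 ± 0.10, adjusted p = 0.559). AHA4, known from the root endodermis, stood at 8.97 to 10.1 and 8.91 to 11.1 CPM (log2 0.05 ± 0.12), and AHA5 at 10.4 to 10.8 and 9.09 to 10.4 CPM (log2 -0.08 ± 0.08). AHA8, known from pollen, stood at 23.0 to 24.4 and 21.7 to 23.0 CPM (log2 -0.07 ± 0.08). AHA10, known for its work in seed coat cells, stood at 1.85 to 2.69 and 2.03 to 2.47 CPM (log2 0.01 ± 0.17). AHA9, known from the male flower organs, had 6 to 19 reads per root sample and a log2 difference of -0.59 ± 0.38 (adjusted p = 0.325). AHA6 had 1 read in all Columbia-0 roots and 1 in all opt3-2 roots.

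The second comparison asked the same of leaves. AHA1, AHA2 and AHA4 rose in opt3-2 leaves, by 1.36-, 1.59- and 1.58-fold, and AHA11 fell to 0.629 of its Columbia-0 level. Of the 9 tested members 4 were called, where 28.1% of all genes were called, 15.4% higher and 12.6% lower. The median log2 fold change of the members was 0.12, beside 0.00 over all genes, and 6 members had an unadjusted p under 0.05. All 4 calls held under all 15 alternatives.

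AHA1 stood at 757, 727 and 751 CPM in Columbia-0 leaves and at 1001, 1027 and 1015 CPM in opt3-2 leaves. The ranges were apart, and the spread within each genotype was small beside the difference (log2 0.45 ± 0.08, adjusted p = 0.00137). AHA2 stood at 160.1, 131 and 150.5 CPM in Columbia-0 leaves and at 229.5, 230.4 and 243 CPM in opt3-2 leaves. Every mutant leaf was above every wild-type leaf (log2 0.67 ± 0.13, adjusted p = 0.0027).
AHA4 stood at 2.32, 2.27 and 2.85 CPM in Columbia-0 leaves and at 4.18, 4.14 and 3.49 CPM in opt3-2 leaves. The groups did not overlap (log2 0.66 ± 0.14, adjusted p = 0.00438), and the values rest on 173 reads in all Columbia-0 leaves and 379 in all opt3-2 leaves.

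AHA11 stood at 172, 166 and 148 CPM in Columbia-0 leaves and at 103.4, 106 and 96.1 CPM in opt3-2 leaves. All mutant leaves were below all wild-type leaves, and the change was the most significant of the family in this organ (log2 -0.67 ± 0.10, adjusted p = 0.000442). Among the 10 chosen genes, with AHA2 up and AHA11 down, the second place in levels per kb was held by AHA2 alone in opt3-2 leaves. AHA3, outside this order, stood above AHA2 there, at 121 ± 6.44 CPM per kb.

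AHA5 (21.2 to 24.3 CPM in wild-type and 24.7 to 25.5 in mutant leaves, log2 0.12 ± 0.07) and AHA8 (17.9 to 21.6 and 18.5 to 20.0 CPM, log2 -0.09 ± 0.08) did not pass. AHA7 was at 1.87 to 2.03 CPM in wild-type and 1.41 to 2.55 in mutant leaves (log2 -0.09 ± 0.23, adjusted p = 0.827). AHA10 was at 2.01 to 2.59 CPM in wild-type and 1.69 to 1.95 in mutant leaves, ranges that did not overlap, but the log2 difference of -0.41 ± 0.18 did not pass (adjusted p = 0.112). AHA9 had 3 to 4 reads in each Columbia-0 leaf sample and 10 to 13 in each opt3-2 leaf sample, and its log2 difference of 1.22 ± 0.48 did not pass either (adjusted p = 0.0792). AHA6 had 2 reads in all Columbia-0 leaves and 0 in the opt3-2 leaves.

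AHA3, known as the pump of phloem companion cells, stood at 381, 452 and 422 CPM in Columbia-0 leaves and at 323, 356 and 355 CPM in opt3-2 leaves. The groups did not overlap, and the difference passed (log2 -0.28 ± 0.08, adjusted p = 0.0267). It was lost under 3 of 15 alternatives, without Columbia-0 leaf replicate 2 (adjusted p = 0.0561), without opt3-2 leaf replicate 1 (adjusted p = 0.0558) and with the run-number set as a covariate (adjusted p = 0.0515). Phloem markers fell in the same leaves: 4 of 7 were called lower in the main test (SUC2, FTIP1, SEOR1 and CALS7), where 12.6% of all genes were. SWEET11 was also called lower in leaves by limma voom (log2 -0.80, adjusted p = 0.00459). It passed with only the groups compared and with the replicate block on the leaves alone (0.000247 each). None of the 7 phloem markers was at 0, and their sum was 596 to 675 CPM in Columbia-0 and 387 to 433 CPM in opt3-2. SUC2, the sucrose loader of companion cells, fell by 0.66 ± 0.08 on the log2 scale (adjusted p = 0.000159). In roots AHA3 stood at 26.8 to 28.6 CPM in Columbia-0 and 28.9 to 34.8 in opt3-2 (log2 0.22 ± 0.09, adjusted p = 0.103), and passed without opt3-2 root replicate 3 (adjusted p = 0.0288). SUC2 rose in roots (log2 0.47 ± 0.08, adjusted p = 0.00252), the only 1 of the 7 called there in the main test. The list median was -0.18, and FTIP1 was called lower by limma voom (0.0356) and with upper-quartile scaling (0.0385). SWEET11 was called lower without Columbia-0 root replicate 3 (log2 -1.57, adjusted p = 0.0225). The phloem sum in roots was 219 to 233 CPM in Columbia-0 and 234 to 254 CPM in opt3-2. The part of phloem content in the AHA3 values was not tested.

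The sum of 6 guard cell markers was 68.4 to 69.8 CPM in opt3-2 leaves against 78.5 to 88.3 CPM, with a list median of -0.03 on the log2 scale. None of the 6 markers was at 0, and 2 were called lower, where 12.6% of all genes were. These were the potassium channels KAT1 (log2 -1.05 ± 0.13, adjusted p = 0.000169) and GORK (log2 -0.55 ± 0.13, adjusted p = 0.00747). The other 4 did not pass: FAMA (log2 0.05 ± 0.12), SLAC1 (0.08 ± 0.23), MYB60 (0.19 ± 0.18) and HT1 (-0.12 ± 0.16). Mean KAT1 was 28.1 CPM in wild-type and 13.6 CPM in mutant leaves, so the lower sum came mostly from this gene. AHA1, known from guard cells among many other cells, rose in the same leaves. In roots, where AHA1 fell, the same markers summed to 17.3 to 21.3 CPM in Columbia-0 and 12.9 to 14.7 CPM in opt3-2. Nearly all of that was GORK, known there from hairs, with means of 18.1 and 12.1 CPM (log2 -0.58 ± 0.11, adjusted p = 0.00536), a call lost with the run-number covariate (0.0591). The other 5 were each under 1 CPM and not called, among them MYB60 (log2 1.08 ± 0.35, adjusted p = 0.0605), which DESeq2 called higher (0.0195). The part of guard cells or hairs in the AHA1 values was not tested.

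**Figure D4:**
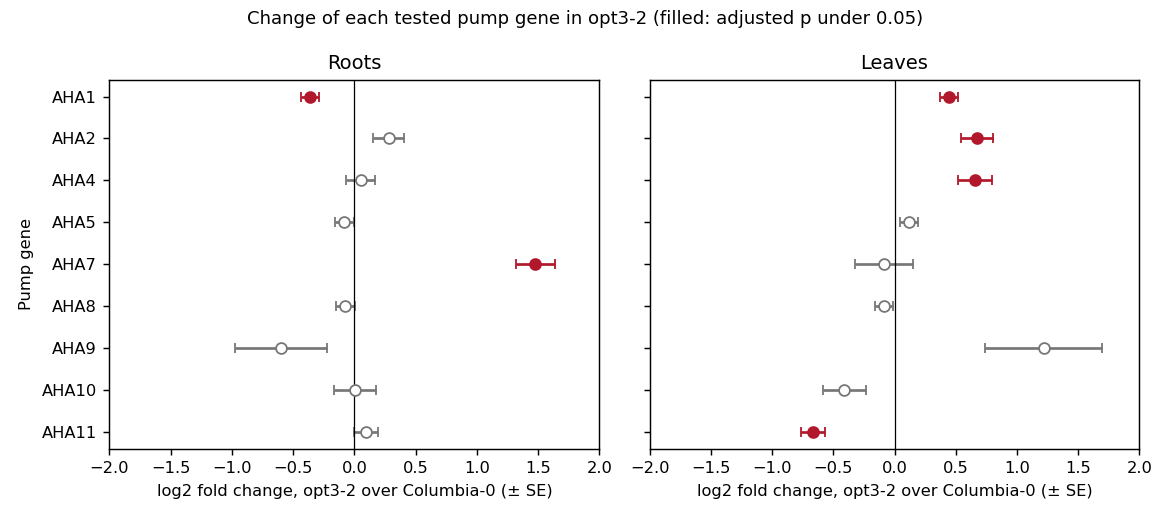
Log2 fold change of each of the 9 tested pump genes in opt3-2 over Columbia-0, with its standard error, in roots (left) and leaves (right); filled points passed an adjusted p of 0.05. In roots AHA7 (1.48) and AHA1 (-0.36) pass, and in leaves AHA1 (0.45), AHA2 (0.67), AHA4 (0.66) and AHA11 (-0.67) pass.

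The interaction term asked whether the genotype difference itself differed between leaves and roots. It was called for 4 of 9 members, AHA1, AHA4, AHA7 and AHA11, where 16.1% of all genes were called, and 5 members had an unadjusted p under 0.05. AHA1 moved in opposite directions, with a leaf effect 0.81 ± 0.11 above its root effect on the log2 scale (adjusted p = 0.000542). For AHA7 the leaf effect was below the root effect (log2 -1.57 ± 0.28, adjusted p = 0.00359), and likewise for AHA11 (log2 -0.76 ± 0.14, adjusted p = 0.00333). These 3 held under all 19 alternatives. For AHA4 the leaf effect was 0.61 ± 0.18 above the root effect (adjusted p = 0.0422), a call that held under only 6 of 19 alternatives, where the adjusted p ran from 0.0349 to 0.129. AHA4 lost it with DESeq2, limma voom, DESeq2 size factors, no filter on low counts, the replicate block (adjusted p = 0.0628) and the run-number covariate. It also lost it without Columbia-0 root replicate 1 (adjusted p = 0.0877) or 2 (0.0894), Columbia-0 leaf replicate 1 (0.115) or 2 (0.129), opt3-2 root replicate 1 (0.0702), or opt3-2 leaf replicate 1 (0.12) or 2 (0.118). AHA2 rose in leaves and was not called in roots, but the difference between the effects did not pass (log2 0.39 ± 0.18, adjusted p = 0.173). AHA9, with few reads, had a difference of 1.81 ± 0.61 (adjusted p = 0.065), which passed without Columbia-0 root replicate 2 (adjusted p = 0.0456) or without opt3-2 root replicate 3 (adjusted p = 0.0163). The AHA3 effects differed too (log2 -0.50 ± 0.12, adjusted p = 0.0151, held under all 19 alternatives).

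Leaf against root showed how each pump is placed in the plant, and these contrasts use the same samples as the genotype comparisons. In Columbia-0, 8 of 9 members were called, where 77.4% of all genes were, with 2 higher and 6 lower in leaves. In opt3-2, 7 of 9 were called, where 78.8% of all genes were, with 3 higher and 4 lower in leaves. AHA7 was the most root-biased pump: its transcript was 33.3-fold higher in roots than leaves in Columbia-0 (log2 -5.06 ± 0.21, adjusted p = 3.39e-10) and 98.5-fold higher in opt3-2 (log2 -6.62 ± 0.21, adjusted p = 3.78e-11). AHA2 was 9.63-fold higher in roots in Columbia-0 and 7.34-fold in opt3-2, and AHA4 3.91- and 2.57-fold. AHA11 was 3.18-fold higher in leaves than roots in Columbia-0 (log2 1.67 ± 0.10) and 1.87-fold in opt3-2 (log2 0.91 ± 0.10). AHA5 was 2.19- and 2.51-fold higher in leaves.

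AHA1 changed its side between the genotypes. In Columbia-0 it was lower in leaves than roots (log2 -0.43 ± 0.08, adjusted p = 0.000274) and in opt3-2 it was higher in leaves (log2 0.38 ± 0.08, adjusted p = 0.000656), both under all 14 alternatives. AHA8 was lower in leaves in both, by 0.22 ± 0.08 and 0.23 ± 0.08 on the log2 scale, but these calls held in only 8 and 12 of 14 alternatives. In Columbia-0 it was lost without root replicate 3 (adjusted p = 0.0616) or without leaf replicate 1, 2 or 3 (0.366, 0.0704 and 0.0688), and in opt3-2 without leaf replicate 2 or 3 (0.0621 and 0.0791). AHA9 was lower in leaves in Columbia-0 (log2 -1.47 ± 0.46, adjusted p = 0.0117), a call lost without leaf replicate 3 (adjusted p = 0.0671), and the difference in opt3-2 was 0.34 ± 0.39. AHA10 had differences of 0.07 ± 0.17 in Columbia-0 and -0.35 ± 0.17 in opt3-2, neither called, although the latter passed with upper-quartile scaling (log2 -0.55, adjusted p = 0.0113). AHA3 was 15.2- and 10.7-fold higher in leaves.

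AHA8 and AHA9, known from pollen, and AHA10, known from the seed coat, had reads in these vegetative samples. Pollen markers were also present at low level: 11 markers summed to 27.9 to 42.3 CPM in wild-type and 14.8 to 26.8 in mutant roots, and to 15.2 to 28.1 and 9.66 to 23.9 CPM in the respective leaves, with BUPS1 at 0 throughout. Much of the root sum was ACA9, with means of 21.9 CPM in wild-type and 15.9 CPM in mutant roots, which was not called (log2 -0.46 ± 0.21, adjusted p = 0.175). The main test called none of the 7 tested markers in leaves. ACA9 was called lower there with only the groups compared (log2 -0.93, adjusted p = 0.0453). In roots edgeR called 3 of 7 tested lower, where 7.28% of all genes were: VGD1, VGDH1 and PGA4. DESeq2 called these 3 lower and also ANX2 (adjusted p = 0.0407). Limma voom called PGA4 alone, a call that edgeR lost with the root samples fitted alone (0.0524). VGD1 and VGDH1 held in only 7 of 15 alternatives each, with an adjusted p of up to 0.125 and 0.111. Both were lost without Columbia-0 root replicate 2 (0.0927 and 0.083) or 3 (0.125 and 0.111) and without opt3-2 root replicate 1 (0.103 each) or 3 (0.0759 and 0.0742), and with the replicate block (0.0578 and 0.0601). Seed coat markers summed to 1.29 to 1.71 CPM in Columbia-0 roots and 1.83 to 2.63 in opt3-2 roots, without overlap. In every leaf sample they summed to at most 0.178 CPM, and TT16 was at 0 in 3 of the groups. Of the 5 markers only TT10 was tested. In roots edgeR did not call it (log2 0.69, unadjusted p under 0.05), and limma voom called it higher (adjusted p = 0.0218). The part of pollen or seed coat content in the AHA8, AHA9 and AHA10 values was not tested.

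Genes whose levels ran most like each called pump over the 12 replicates were named by Pearson's r of log2 CPM, as a description. The 12 points share library, depth and organ. For AHA7 these were AUG6, RSL4 and AT3G25950 (r = 0.998 each). For AHA2 they were AT2G44350, a citrate synthase, AT3G02420 and CNGC10, with r of 0.998, 0.997 and 0.997. For AHA1 they were DUR3, a urea transporter (0.938), NRPC1 (0.937) and ECA3 (0.923). For AHA4 they were RR2, AT3G26100 and AT2G35910 (0.995, 0.995 and 0.994). For AHA11 they were AT1G71695, BFT and IAA7 (0.991, 0.99 and 0.989). DUR3 moved as AHA1 did across the groups, with mean levels of 196 and 87.0 CPM in Columbia-0 and opt3-2 roots and 64.4 and 162 CPM in the leaves.

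The 250 bases before the annotated start are shown for AHA7 alone, as the pump that rose in opt3-2 roots, at chr3:22298123-22298372 on the plus strand of TAIR10.1. The capitals mark CANNTG, the core that bHLH factors such as FIT and RSL4 can recognise.
AHA7: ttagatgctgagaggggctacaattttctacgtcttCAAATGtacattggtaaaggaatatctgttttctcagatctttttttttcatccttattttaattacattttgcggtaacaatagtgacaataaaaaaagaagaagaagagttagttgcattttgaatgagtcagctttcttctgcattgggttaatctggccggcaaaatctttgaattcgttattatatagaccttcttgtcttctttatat
The motif CANNTG was searched as written, on both strands at once because it is its own reverse complement, and it begins 214 bases before the start. It was in the same window of 5 of the 10 pump genes, among them AHA4 and AHA7 but neither AHA1, AHA2 nor AHA11, and in 15181 of 27443 promoters of the genome (55.3%). The stricter CACGTG, contained in CANNTG, was in none of the 10 and in 1780 promoters (6.5%). A match is a string of letters and not a binding site.

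Genes of the iron uptake response rose together with AHA7 in roots, where 8.28% of all genes were called higher. All 4 listed genes were called higher: FRO2 from 45.3 to 72.1 CPM to between 2381 and 4066 (log2 5.85 ± 0.24), IRT1 from 40.2 to 67.6 to between 1964 and 2886 (log2 5.54 ± 0.27), the coumarin exporter PDR9 (log2 3.13 ± 0.21), and the regulator FIT from 66.3 to 84.4 to between 229.5 and 312 CPM (log2 1.83 ± 0.14). The AHA7 change of 1.48 was smaller than each of these. In leaves FIT rose from a low level (log2 1.06 ± 0.18, from 1.81 to 2.40 CPM to between 3.80 and 4.88), PDR9 fell by 0.84 ± 0.25 (adjusted p = 0.0285), and FRO2 (log2 0.16 ± 0.23) and IRT1 (log2 -0.24 ± 0.39) did not pass. The PDR9 call was lost in 6 of 15 alternatives, among them without Columbia-0 leaf replicate 1 (0.0591) or 2 (0.0666) and without opt3-2 leaf replicate 1 (0.0692) or 2 (0.0669).

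The 14-3-3 proteins hold the phosphorylated pump active. Of 12 genes 11 were tested, GRF12 having too few reads. In roots 2 were called higher and none lower, where 15.6% of all genes were called, with a median log2 change of 0.08. GRF11 stood at 8.22, 8.67 and 7.36 CPM in Columbia-0 roots and at 79.0, 89.9 and 99.9 CPM in opt3-2 roots, far apart (log2 3.47 ± 0.11, adjusted p = 5.26e-09), and GRF6 rose by 0.42 ± 0.06. In leaves, where 28.1% of all genes were called, 2 were higher, GRF7 (log2 0.77 ± 0.09) and GRF5 (log2 0.21 ± 0.06). Another 2 were lower, GRF11 (log2 -0.48 ± 0.10) and GRF8 (log2 -0.26 ± 0.07), and the list median was 0.00. GRF5 lost its call when any 1 of the 6 leaf samples was left out (adjusted p of 0.0827 to 0.129). DESeq2 and limma voom also called GRF9 higher in roots (in edgeR log2 0.17 ± 0.05, adjusted p = 0.0573), as 2 of 15 alternatives did. Both tools called GRF4 lower in leaves (in edgeR log2 -0.15 ± 0.05, adjusted p = 0.0583), as 8 of 15 alternatives did. GRF9 and GRF4 were named after their values were seen.

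The PP2C.D phosphatases remove the activating phosphate, and the SAUR19 subfamily of small auxin-induced proteins blocks them. None of 9 phosphatase genes was called in roots by edgeR or limma voom and 1 by DESeq2 (PP2C.D2, in edgeR log2 0.16 ± 0.05 and adjusted p = 0.0693, named after its value was seen), with 1 at an unadjusted p under 0.05 in edgeR. The most abundant, PP2C.D6 and PP2C.D8, had differences of 0.15 ± 0.07 (adjusted p = 0.176) and 0.45 ± 0.43 (adjusted p = 0.525). In leaves 2 fell, PP2C.D7 (log2 -1.87 ± 0.33, adjusted p = 0.00172) and PP2C.D1 (log2 -1.15 ± 0.16, adjusted p = 0.000353), and 2 rose, PP2C.D9 (log2 0.54 ± 0.16, adjusted p = 0.0251) and PP2C.D6 (log2 0.27 ± 0.07, adjusted p = 0.0132). Of all genes, 15.6% were called in roots and 28.1% in leaves. The leaf rises of PP2C.D9 and PP2C.D6 were less firm. PP2C.D9 was lost with limma voom (0.0509) and without Columbia-0 leaf replicate 1 or 2 or any opt3-2 leaf replicate (0.0501 to 0.132), and PP2C.D6 without Columbia-0 leaf replicate 1 (0.084) or opt3-2 leaf replicate 1 (0.0778) or 3 (0.071).

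All 6 SAUR19 subfamily genes were called lower in leaves, where 12.6% of all genes were, with a median log2 change of -1.09. SAUR22 stood at 4.68, 5.03 and 4.65 CPM in Columbia-0 leaves and at 1.20, 1.41 and 1.60 CPM in opt3-2 leaves, so that it fell by 1.77 ± 0.21 on the log2 scale (adjusted p = 0.000307). SAUR20 fell by 1.23 ± 0.22, SAUR19 by 1.10 ± 0.33 and SAUR21 by 1.08 ± 0.17. SAUR19 lost its call without Columbia-0 leaf replicate 1 (0.123) or 2 (0.118) or opt3-2 leaf replicate 1 (0.108) or 3 (0.128). These genes are near-identical neighbours, so reads may have been split or shared among them, and the 6 are not independent. In roots all 6 were at 0.193 CPM or less in each sample, and none was called by edgeR, DESeq2 or limma voom or had an unadjusted p under 0.05.

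Kinases, receptors and other interactors of the pump made a mixed list of 15, beside 15.6% of all genes called in roots and 28.1% in leaves. In roots 2 rose, PKS5, a kinase that lowers pump activity (log2 0.61 ± 0.16, adjusted p = 0.0238), and RALF1, a peptide that alkalinises the wall (log2 0.47 ± 0.10, adjusted p = 0.00798). The receptor kinases TMK1 (log2 -0.44 ± 0.11, adjusted p = 0.025) and PSY1R (log2 -0.41 ± 0.10, adjusted p = 0.0204), both known to phosphorylate the pump, fell. In leaves RALF1 (log2 -0.69 ± 0.15, adjusted p = 0.00576), TMK1 (log2 -0.63 ± 0.11, adjusted p = 0.00181) and the blue light receptor PHOT1 (log2 -0.32 ± 0.08, adjusted p = 0.0134) fell, and PKS5 (log2 0.58 ± 0.20, adjusted p = 0.0478) and RIN4 (log2 0.32 ± 0.07, adjusted p = 0.00562) rose. RIN4, a plant immunity protein that binds the pump, was named after its value was seen. The list medians were 0.07 in roots and 0.02 in leaves. Each of the 4 root calls was lost with the run-number covariate (adjusted p of 0.0685 to 0.182), and those of RALF1, TMK1 and PSY1R also with the root samples fitted alone (0.054, 0.0746 and 0.085). The replicate block on the roots alone took the PSY1R call as well (0.105). PKS5 in roots was also lost without Columbia-0 root replicate 1 (0.086) or 2 (0.0836) or opt3-2 root replicate 2 (0.0657), TMK1 without Columbia-0 root replicate 2 (0.105) or opt3-2 root replicate 1 (0.0705) or 2 (0.0523), and PSY1R without Columbia-0 root replicate 1 (0.0829) or 2 (0.0636) or opt3-2 root replicate 1 (0.0612). In leaves PKS5 held in only 3 of 15 alternatives, with an adjusted p of up to 0.212, and RALF1 was lost with limma voom (0.124).

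The list of vacuolar proton pumps holds pumps that acidify compartments inside the cell and not its outside. The vacuole is the main one, but VHP2;1 and VHA-a1 in the list are not known from it. Of 30 listed genes 29 were tested. Of all genes, 15.6% were called in roots and 28.1% in leaves. In roots 1 rose and 1 fell, with 10 at an unadjusted p under 0.05 and a median of 0.09, and DESeq2 called 4 higher and 1 lower. VHA-E3, a subunit of the V-ATPase stalk, stood at 127, 128 and 118 CPM in Columbia-0 roots and at 70.3, 76.6 and 78.3 CPM in opt3-2 roots (log2 -0.73 ± 0.08, adjusted p = 8.29e-05). It fell in leaves too (log2 -0.78 ± 0.08, adjusted p = 5.73e-05). VHA-c''1 rose in roots by 0.21 ± 0.06 (adjusted p = 0.0371), a call lost in 9 of 15 alternatives, among them the replicate block (0.0525) and the removal of any root sample but opt3-2 replicate 1. In leaves 2 rose and 4 fell, around a median of -0.01, among them the pyrophosphatase VHP2;1 (log2 0.44 ± 0.09), VHA-d1 (log2 -0.18 ± 0.05) and the scarce VHA-G3, which fell from 0.623 to 0.975 CPM to between 0.188 and 0.338 CPM (log2 -1.67 ± 0.35). VHA-d1 was lost without opt3-2 leaf replicate 2 (adjusted p = 0.0503), with the replicate block (0.0535) and with the run-number covariate (0.0512). The other 2 calls were VHA-c4 (log2 -0.16 ± 0.05) and VHA-d2 (log2 0.17 ± 0.05), which held in 9 and 2 of 15 alternatives and were named after their values were seen.

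**Figure D5:**
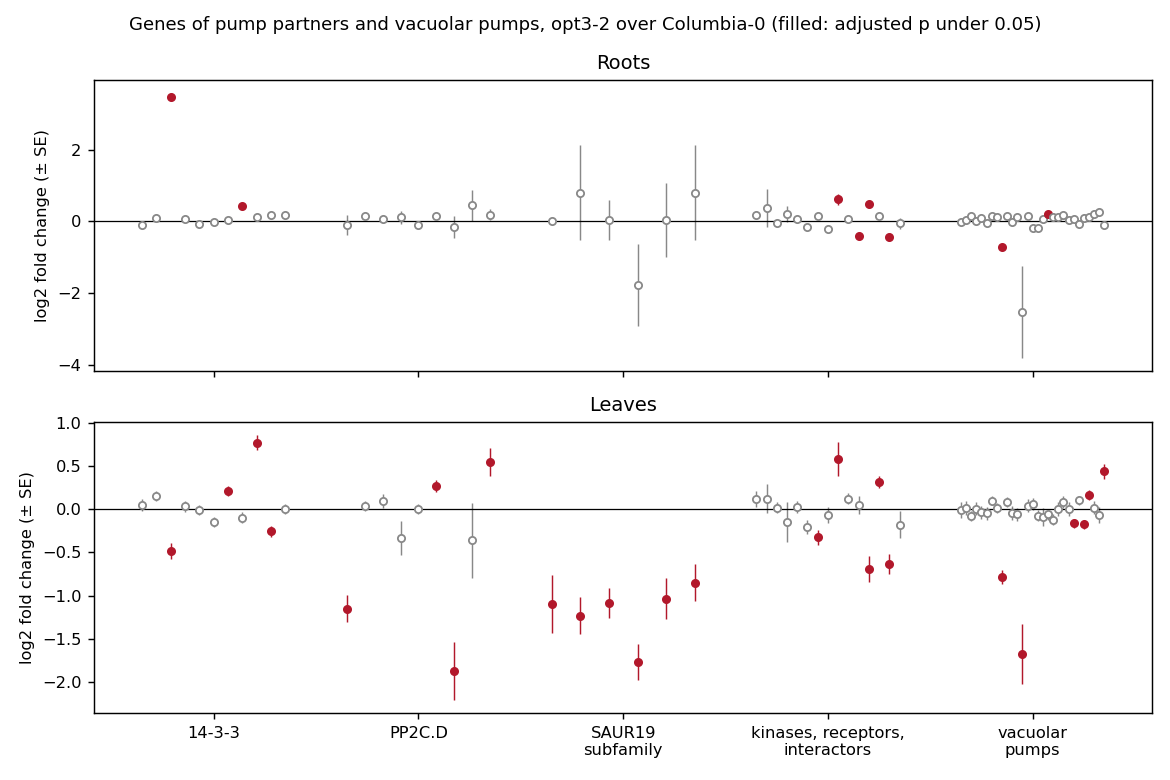
Log2 fold change in opt3-2 over Columbia-0, with its standard error, of the tested genes in 5 lists of pump partners and vacuolar pumps, in roots (top) and leaves (bottom); filled points passed an adjusted p of 0.05 and each point is 1 gene. In roots GRF11 stands alone at 3.47, and in leaves all 6 SAUR19 subfamily genes are filled and below 0.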

How the data were processed

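Per the labels' protocols, Illumina TruSeq libraries were made from total RNA. Per the submitters' processing notes, TopHat2, edgeR and the TAIR10 build were used, with no versions stated. No source used here gives the counting program or the strand setting. The authors deposited raw read counts per gene for 28775 genes. Of the columns, 36 were matched to this study by name, an S being read as the tissue letter other than R, and 36 others were not used.

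The 3 runs of a replicate, which differed by little more than sampling noise (chi-square per degree of freedom 1.02 to 1.07, against 7.57 to 48.2 between replicates), were summed. Counts were tested with edgeR 4.0.16 in R 4.3.3 (TMM, filterByExpr, quasi-likelihood test, one mean per group over all 4 groups, 8 residual degrees of freedom, common BCV 0.137). P-values were adjusted by Benjamini and Hochberg over 21692 genes. Standard errors were taken as the absolute log2 fold change over the root of the F statistic. Alternatives were DESeq2 1.42.0, limma 3.58.1 voom, other scalings, no filter, only the groups compared, a run-number covariate, a replicate block and leaving out each replicate. Run numbers are 1 to 3 in all opt3-2 replicates and 2 to 4 or 5 to 7 in Columbia-0. Single run numbers occur in both genotypes, but no whole set does, so run set and genotype cannot be told apart. The run-number covariate marked only the replicates of runs 5 to 7, all of them Columbia-0, against all other replicates. It did not separate runs 1 to 3 from runs 2 to 4.

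Replicates with the same number deviated together in roots (correlation of deviations 0.157 to 0.466 over the 3 pairs of Columbia-0 and opt3-2), and not in leaves (-0.072 to 0.007). Root pairs of unlike number ran from -0.511 to 0.182. The highest of these, Columbia-0 replicate 1 with opt3-2 replicate 2, was above the matched pair of replicates 2 (0.157). The likeness in roots is a pattern of the data, as the labels do not say what a number marks. The main test has no block, and the root numbers were used as pairs in alternative fits alone.

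The members and the gene lists were chosen with earlier results of these data known. All members were named. From each partner list, up to 4 called genes with the largest change were named, or the 2 most abundant where fewer than 2 were called. RefSeq TAIR10.1 gave lengths and sequences, and 28009 of the table's IDs matched it.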

Additional observations from a re-analysis of the deposited data

Results flagged for a closer look

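For 5 pump genes the effect of opt3-2 differed between leaves and roots by the interaction test (log2, leaf minus root). The values were 0.81 for AHA1, 0.61 for AHA4, -1.57 for AHA7, -0.76 for AHA11 and -0.50 for AHA3. AHA1 fell in roots and rose in leaves, and the call for AHA4 held under only 6 of 19 alternatives. The range-based check for a sample far from its group was not made, since it is not defined for groups of 3.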

How the results depend on the processing

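Among the pumps, 721 of the results recomputed under alternatives kept their direction and side of the threshold, 28 lost the call, 5 gained it and 12 changed sign, none of the last with a call. The number of pumps called in roots went from 2 to 1 with only the groups compared, with the replicate block and only the groups compared (chosen after seeing the data), and with the run-number covariate, AHA1 being lost each time. The number of all genes called in roots went from 3377 to 1973 with only the groups compared and to 1633 with the run-number covariate (1107 higher and 526 lower), and was 2074 to 4231 when 1 replicate was left out (2237 and 2074 when this was Columbia-0 root replicate 1 or 2). Under the replicate block over all groups the counts were 3230 in roots and 5934 in leaves, and over roots alone 2445. Beyond AHA1, AHA4 and the list genes named above, the block changed no other call of a pump. In leaves 3349 genes were called higher and 2741 lower, but 2874 and 3268 with DESeq2 size factors and 2792 and 3028 with upper-quartile scaling. In roots 1797 were called higher and 1580 lower, but 1595 and 1861 with upper-quartile scaling. Upper-quartile scaling moved the median log2 change of all genes between organs to -0.247 in Columbia-0 and -0.226 in opt3-2, from -0.061 and -0.022.

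No value that changed sign was called under any setting. These were AHA10 in roots with upper-quartile scaling (-0.0174) and with only the groups compared (-0.00271), AHA10 between organs in Columbia-0 with upper-quartile scaling (-0.12), and SAUR21 in roots with limma voom (-0.0702) and the run-number covariate (-0.14). With 1 replicate left out, the values ran from -0.0189 to 0.138 for AHA4 in roots, -0.132 to 0.138 for AHA10 in roots, -0.425 to 0.0319 for AHA7 in leaves, -0.144 to 0.00927 for the AHA8 interaction, -0.0692 to 0.243 for AHA10 between organs in Columbia-0, -0.335 to 0.876 for PP2C.D8 in roots, -0.710 to 0.431 for SAUR21 in roots, -1.76 to 2.56 for SAUR24 in roots and -0.534 to 0.210 for IRT1 in leaves. The cause of these changes was not tested. AHA6 and AHA9, with at most 19 reads per sample, are limited by depth.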
